A study of Mus musculus with 10 samples.

Results

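The Fc gamma receptors and the signalling proteins read beside them are 7 genes here. They are the activating receptors Fcgr1, Fcgr3 and Fcgr4, the inhibitory receptor Fcgr2b, the adaptors Fcer1g and Tyrobp, and the kinase Syk. They were taken as every probe set whose only platform gene symbol is one of these, which gave 15 of the 45037 probe sets tested and 7 of the 18193 genes represented. RNA of the whole hippocampus was taken from 10 female SJL/J mice, adults obtained at 8 to 10 weeks of age, were profiled 2 days after an axonal lesion, with 1 array for each mouse. The AxL group (5 mice) had the lesion alone, and the TPlp+AxL group (5 mice) was given T cells specific for proteolipid protein, a major myelin protein, before the lesion. All 10 mice carried the lesion, so no value here describes an uninjured hippocampus, and no group given T cells of another specificity was analysed here. Values are log2 signals that the authors made with RMA, which summarises the probes of a probe set after background correction and normalization. They rank arrays for 1 probe set but do not compare the abundance of different genes.

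Fc gamma receptors bind the constant part of IgG antibodies on the surface of phagocytes and other leukocytes. Activating receptors have no signalling motif that works alone: they are held by the dimeric adaptor encoded by Fcer1g, whose ITAM motif is phosphorylated and then bound by the kinase Syk, which leads to phagocytosis and cytokine release. Fcgr2b carries an inhibitory ITIM motif in its own tail, which recruits the phosphatase SHIP-1 (Inpp5d) and dampens the same cascade. Tyrobp, also called DAP12, is a related ITAM adaptor that serves other receptors, such as Trem2. In the brain these genes are expressed mainly by microglia and by macrophages.

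At 3 of the 4 receptor genes expression rose, and the adaptors and the kinase did not pass the test. Of 9 receptor probe sets, 7 were higher in TPlp+AxL at an adjusted p under 0.05 (limma, Benjamini-Hochberg adjustment over all probe sets), from Fcgr1, Fcgr4 and Fcgr2b, and 0 of the 6 probe sets of Fcer1g, Tyrobp and Syk passed (the unadjusted limma p was under 0.05 for Fcer1g, at 0.0256, and for 2 Syk probe sets, at 0.00073 and 0.0446). No member was lower. Over all probe sets 0.835% passed, 0.646% as higher and 0.189% as lower. In 9 of the 15 member probe sets the groups did not overlap and TPlp+AxL was the higher, which held for 1.94% of all probe sets. The median log2 change was 0.26 over the 15 and -0.003 over all probe sets. The largest changes were those of Fcgr4 and of 1 Fcgr2b probe set, so the top of the range held both an activating and the inhibitory receptor. In these bulk samples more cells of a type and more RNA per cell cannot be told apart.

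**Figure D1:**
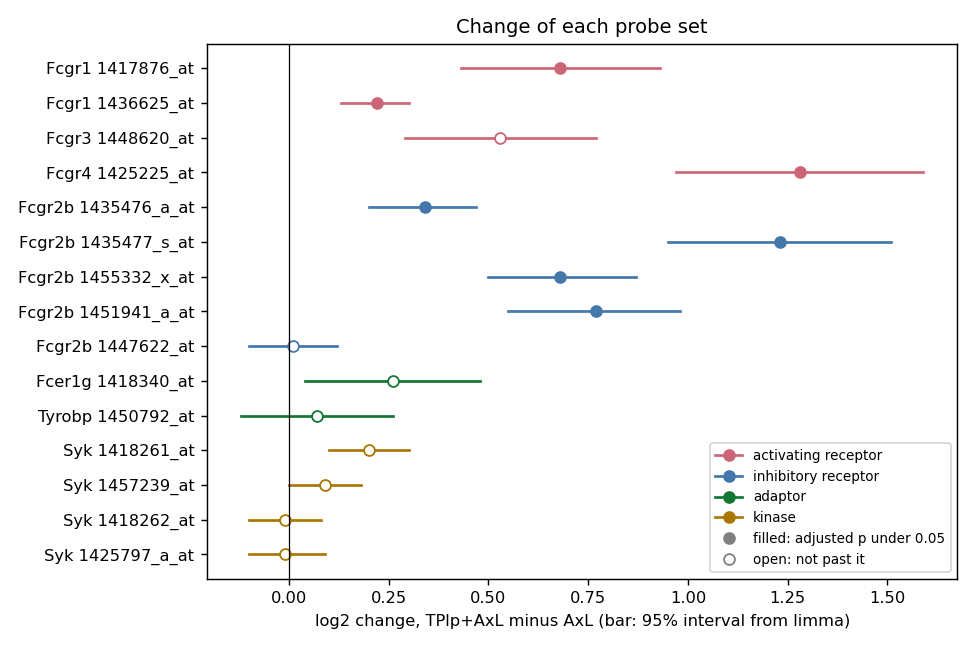
The log2 change of each of the 15 probe sets (horizontal axis, TPlp+AxL minus AxL) is drawn with its 95% interval from limma, and filled points have an adjusted p under 0.05. Filled points are seen for Fcgr1, Fcgr4 and 4 of the 5 Fcgr2b probe sets, from 0.22 to 1.28, and none for Fcer1g, Tyrobp or Syk.

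Arrays AxL 3, AxL 5 and TPlp+AxL 1 stood apart by genes of the choroid plexus, a ventricular tissue next to the hippocampus: the mean log2 value of 8 marker genes was 10.32, 9.59 and 9.68 on them and 8.39 to 8.52 on the other 7 arrays. With those 3 arrays left out together, 1 probe set of all 45037 passed in limma and 0 of the 15 members did (4743 probe sets had an unadjusted p under 0.05). Only 7 arrays remained in this fit, which by itself lowers the power to pass. How much of the loss came from the smaller number of arrays was not tested. The members' changes stayed close to those of all arrays: 1.30 for Fcgr4, 0.64 for the brighter Fcgr1 probe set, 0.55 for Fcgr3 and 1.19 for the Fcgr2b probe set that moved most, with adjusted p of 0.127, 0.252, 0.312 and 0.125. Over all probe sets 376 passed, 291 higher and 85 lower, and the split was 269 and 210 with the arrays set to a common median and 348 and 43 after cyclic loess normalization. Hippocampal neuron markers such as Snap25 (13.68 in AxL, 13.54 in TPlp+AxL) and Rbfox3 (13.58 and 13.44) were among the brightest probe sets of the arrays.

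To set the activating receptors beside the inhibitory one, the 250 bases before the transcription start of each of the 4 receptors are shown, from RefSeq's mouse assembly GRCm38.p6. That assembly is of C57BL/6J mice, not the SJL/J strain used here. Fcgr2b, Fcgr4 and Fcgr3 are neighbours on chromosome 1, with Fcer1g a few genes further on, and Fcgr1 is on chromosome 3. Capitals mark matches on either strand to 2 motifs: ISRE, a site of interferon regulatory factors (GAAANNGAAA), and the core of PU.1, a myeloid transcription factor (GAGGAA).
Fcgr1, chr3:96293970-96294219, minus strand: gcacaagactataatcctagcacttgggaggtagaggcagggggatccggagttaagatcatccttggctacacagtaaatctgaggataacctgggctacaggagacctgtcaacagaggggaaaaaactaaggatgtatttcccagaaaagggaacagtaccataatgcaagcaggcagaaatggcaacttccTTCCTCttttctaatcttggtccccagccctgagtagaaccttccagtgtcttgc
Fcgr3, chr1:171059404-171059653, minus strand: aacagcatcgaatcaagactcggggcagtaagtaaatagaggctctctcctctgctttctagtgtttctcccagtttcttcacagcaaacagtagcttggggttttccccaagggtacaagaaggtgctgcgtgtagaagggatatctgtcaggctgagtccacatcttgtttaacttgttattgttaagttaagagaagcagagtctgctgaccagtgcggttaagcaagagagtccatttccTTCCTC
Fcgr4, chr1:171018676-171018925, plus strand: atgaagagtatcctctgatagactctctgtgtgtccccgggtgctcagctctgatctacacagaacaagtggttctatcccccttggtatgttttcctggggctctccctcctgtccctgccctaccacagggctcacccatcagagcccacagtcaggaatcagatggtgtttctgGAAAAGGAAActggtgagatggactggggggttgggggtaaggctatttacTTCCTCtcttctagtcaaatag
Fcgr2b, chr1:170976072-170976321, minus strand: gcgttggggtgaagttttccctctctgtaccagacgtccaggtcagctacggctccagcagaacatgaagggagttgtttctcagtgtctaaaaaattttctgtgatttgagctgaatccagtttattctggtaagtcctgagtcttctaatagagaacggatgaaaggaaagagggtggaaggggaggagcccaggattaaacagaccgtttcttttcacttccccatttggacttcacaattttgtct
Fcgr1 held 1 PU.1 core, from 55 to 50 bases before the start. Fcgr4 held 1 ISRE match, GAAAAGGAAA, from 73 to 64 bases before the start, and a PU.1 core from 22 to 17 bases before it. Fcgr3 held a PU.1 core in the last 6 bases before the start of its first listed promoter, and Fcgr2b held neither motif in this window. Among the 32851 promoters of the table, a window of the same length held the ISRE motif in 2.98% and the PU.1 core in 23.3%. These are matches of letters and say nothing of whether a factor binds there in the hippocampus. Fcer1g had no match to either, and 1 of the 2 Syk promoters had a PU.1 core. The promoter table matched 6 of the 7 members.

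Among the activating receptors, Fcgr4 changed most. Fcgr4 encodes a mouse receptor for IgG2 subclasses found on monocytes, macrophages and neutrophils. Its single probe set (1425225_at) read 8.04, 8.18, 8.28, 8.25 and 8.01 in AxL 1 to 5 and 9.30, 8.96, 9.92, 9.43 and 9.52 in TPlp+AxL 1 to 5. The lowest TPlp+AxL array was 0.68 above the highest AxL array, and TPlp+AxL 3 was the highest. The mean rose from 8.15 ± 0.12 (SD, n = 5) to 9.43 ± 0.35 (SD, n = 5), a 2.43-fold difference with a 95% interval of 1.96 to 3.01 (log2 change 1.28, SE 0.14, limma adjusted p = 0.0019). It ranked at position 39 of all probe sets by size of increase, and it passed with any 1 array left out (adjusted p 0.000121 to 0.011).

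Fcgr1, or CD64, is the high-affinity receptor that can hold single IgG molecules, and it is widely used to tell macrophages from other leukocytes. Its brighter probe set (1417876_at) read 9.12, 8.88, 9.01, 9.43 and 9.31 in AxL 1 to 5 and 10.01, 9.57, 10, 9.69 and 9.88 in TPlp+AxL 1 to 5. The groups did not overlap, with a gap of 0.14 between AxL 4 and TPlp+AxL 2. The log2 change was 0.68 (SE 0.11, limma adjusted p = 0.0173), a 1.6-fold difference. It was lost by a small margin without AxL 3 (adjusted p = 0.0502), TPlp+AxL 3 (0.0516) or TPlp+AxL 5 (0.0546), while its size ran from 0.61 to 0.75 over the 10 single omissions. The second Fcgr1 probe set (1436625_at) moved less, from 8.37 to 8.46 in AxL and 8.52 to 8.70 in TPlp+AxL, again without overlap (log2 change 0.22, SE 0.04, limma adjusted p = 0.0261). That call held in 2 of 10 single omissions, those of AxL 2 and TPlp+AxL 1, and the adjusted p in the other 8 ran from 0.0503 without TPlp+AxL 2 to 0.0889 without TPlp+AxL 4. It was also lost after repeated quantile normalization (0.0701) and with a block for the replicate number (0.0915).

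Fcgr3, or CD16, is a low-affinity receptor that binds IgG in immune complexes. Its probe set (1448620_at) read 10.27, 9.93, 10.33, 10.51 and 10.46 in AxL 1 to 5 and 11.02, 10.60, 10.90, 10.72 and 10.91 in TPlp+AxL 1 to 5. All TPlp+AxL arrays were above all AxL arrays, by 0.09 at the closest. The log2 change was 0.53 (95% interval 0.29 to 0.77), and it did not pass (limma adjusted p = 0.0516). The result lay on the edge of the threshold: it passed under 10 of 19 alternatives, among them repeated quantile normalization (change 0.62, adjusted p = 0.0022), the replicate block (0.0386) and the omission of AxL 2 (0.0431), AxL 4 (0.0369) or TPlp+AxL 2 (0.0349). Without TPlp+AxL 3 its adjusted p was 0.132.

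The inhibitory receptor Fcgr2b is measured by 5 probe sets, and 4 of them rose. The largest change was that of 1435477_s_at, which read 8.80, 8.74, 9.05, 9.27 and 8.97 in AxL 1 to 5 and 10.46, 9.87, 9.99, 10.38 and 10.28 in TPlp+AxL 1 to 5. The groups were 0.60 apart at the closest, and the change was 1.23 (SE 0.13, limma adjusted p = 0.00143), a 2.34-fold difference. The ending _s_at marks probes that match transcripts of more than 1 gene in the array's design, and what other transcript contributes here was not tested. Fcgr3 is a close relative of Fcgr2b in its extracellular part.

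Of the other Fcgr2b probe sets, 1451941_a_at ran from 8.43 to 8.92 in AxL and from 9.23 to 9.62 in TPlp+AxL (log2 change 0.77, SE 0.10, limma adjusted p = 0.00412). Probe set 1455332_x_at ran from 8.93 to 9.17 in AxL and from 9.49 to 9.86 in TPlp+AxL (0.68, SE 0.08, limma adjusted p = 0.00324). These and 1435477_s_at passed with any 1 array left out. The brightest, 1435476_a_at, read 10.31, 10.43, 10.14, 10.40 and 10.50 in AxL 1 to 5 and 10.63, 10.66, 10.67, 10.72 and 10.77 in TPlp+AxL 1 to 5. Its 5 TPlp+AxL arrays were tightly grouped above the AxL arrays, and its change was the smallest of the 4 that passed (0.34, SE 0.06, limma adjusted p = 0.0307). This call was lost without AxL 1 (0.0788), TPlp+AxL 1 (0.05), TPlp+AxL 2 (0.0522), TPlp+AxL 3 (0.0788), TPlp+AxL 4 (0.1) or TPlp+AxL 5 (0.0864). The fifth, 1447622_at, was dim, at the 2.76th percentile of all probe sets by mean level, and it read 6.16 to 6.37 in AxL and 6.24 to 6.32 in TPlp+AxL. It differed by 0.01 between the groups, with an interval of -0.10 to 0.12 (limma adjusted p = 0.937).

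The Fcgr2b probe sets did not report 1 common change. The platform lists 1435476_a_at, 1435477_s_at and 1455332_x_at with the same source sequence, and the ending _x_at marks probes that may also bind unrelated transcripts. The difference between 1435476_a_at and 1435477_s_at ran from 1.09 to 1.70 in AxL and from 0.17 to 0.79 in TPlp+AxL. The ranges did not overlap. The difference between 1435476_a_at and 1455332_x_at ran from 1.21 to 1.42 in AxL and from 0.77 to 1.17 in TPlp+AxL, again apart. The difference between 1455332_x_at and 1451941_a_at overlapped between the groups (0.25 to 0.58 and 0.24 to 0.48). Which transcripts each probe set detects was not tested, so a value for the gene as a whole depends on the probe set chosen.

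**Figure D2:**
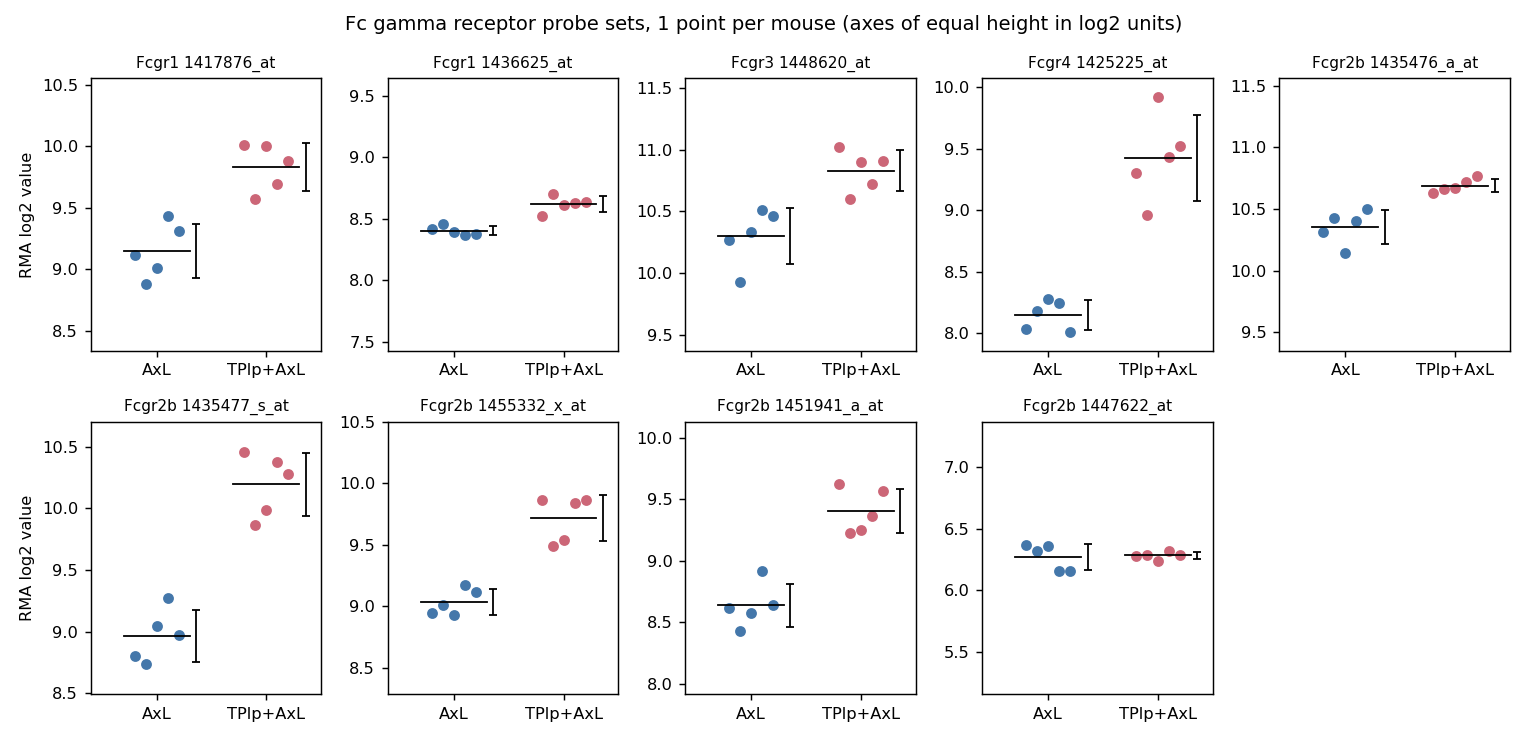
Each panel shows 1 receptor probe set, with 1 point for each mouse in the order of its replicate number, a line at the group mean, a bar of 1 SD beside it, and RMA log2 values on the vertical axis (panels span the same number of log2 units but start at different levels). In 8 of the 9 panels every TPlp+AxL point lies above every AxL point, with the widest gaps in Fcgr4 (0.68) and Fcgr2b 1435477_s_at (0.60), and Fcgr2b 1447622_at is flat.

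Whether activating receptors changed more than the inhibitory one was tested within arrays, as the log2 value of an activating probe set minus that of an Fcgr2b probe set, for all 20 pairs. Such a difference shows unequal change of the probe sets, not a ratio of transcripts. Probe sets of the same gene also changed unequally: 1435476_a_at minus 1435477_s_at, both of Fcgr2b, shifted by -0.89. A shift between probe sets of different genes therefore need not be one between the genes. Each pair was compared between groups by an exact permutation of the group labels (two-sided, smallest possible p = 0.00794), with Benjamini-Hochberg adjustment over the 20 pairs. The activating receptor rose more in 7 pairs, it rose less in 6, and 7 pairs did not pass. Of the 7 pairs in which it rose more, 4 were against the dim and flat 1447622_at and so restate the activating probe set's own change. Over the 16 pairs with the other Fcgr2b probe sets the activating receptor rose more in 3, rose less in 6, and 7 did not pass. The pairs share probe sets, so these counts are not of independent results and do not weigh the activating receptors against Fcgr2b.

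Against the brightest Fcgr2b probe set, Fcgr4 rose more. The difference between Fcgr4 and 1435476_a_at was -2.27, -2.25, -1.86, -2.15 and -2.49 in AxL 1 to 5 and -1.32, -1.70, -0.75, -1.29 and -1.25 in TPlp+AxL 1 to 5, a shift of 0.94 (limma 95% interval 0.61 to 1.28, adjusted exact permutation p = 0.0227). The same comparison for Fcgr1 1417876_at averaged -1.21 in the AxL mice and -0.86 in the TPlp+AxL mice (SD 0.21 in each, n = 5), with overlapping groups and a shift of 0.34 (adjusted exact permutation p = 0.0488). That call for Fcgr1 held in 2 of 10 single omissions, those of AxL 4 (0.0289) and TPlp+AxL 2 (0.0366), and not without AxL 1 (0.0855), AxL 2 (0.0952), AxL 3 (0.0733), AxL 5 (0.0794), TPlp+AxL 1 (0.102), TPlp+AxL 3 (0.0952), TPlp+AxL 4 (0.0577) or TPlp+AxL 5 (0.0794). For Fcgr3 the shift was 0.20 and did not pass (limma 95% interval -0.09 to 0.49, adjusted exact permutation p = 0.252). For the second Fcgr1 probe set, 1436625_at, it was -0.12 and did not pass (adjusted exact permutation p = 0.169), but it passed after quantile (-0.21, 0.0265) or cyclic loess (-0.20, 0.0397) normalization.

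Against the Fcgr2b probe set that moved most, 1435477_s_at, Fcgr1 and Fcgr3 rose less. Fcgr3 minus 1435477_s_at fell from 1.20 to 1.49 in AxL to 0.34 to 0.91 in TPlp+AxL, with no overlap and a shift of -0.70 (adjusted exact permutation p = 0.0227). For Fcgr1 1417876_at the shift was -0.55 (adjusted exact permutation p = 0.0289) and for Fcgr1 1436625_at it was -1.01 (adjusted exact permutation p = 0.0227). Fcgr4 minus 1435477_s_at shifted by 0.05 and did not pass, with a limma interval of -0.31 to 0.41 (adjusted exact permutation p = 0.894).

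Against 1455332_x_at and 1451941_a_at, Fcgr1 1436625_at rose less, by -0.47 and -0.55 (adjusted exact permutation p = 0.0289 for each). Fcgr4 rose more than 1455332_x_at (shift 0.60, adjusted exact permutation p = 0.0227). Its shift of 0.51 against 1451941_a_at did not pass (adjusted exact permutation p = 0.0567, and 0.0317 without TPlp+AxL 1 or 0.0366 without TPlp+AxL 2). The limma 95% interval of that shift was 0.16 to 0.86. By limma on the pair differences the adjusted p was 0.0138 for it, 0.0679 for Fcgr3 minus 1451941_a_at and 0.0733 for Fcgr1 1436625_at minus 1447622_at. Fcgr1 1417876_at had shifts of 0.00 against 1455332_x_at (limma 95% interval -0.27 to 0.26) and -0.09 against 1451941_a_at (-0.33 to 0.15), and neither passed (adjusted exact permutation p = 0.976 and 0.423, the latter 0.0289 without TPlp+AxL 3). Fcgr3 had -0.15 against 1455332_x_at, which did not pass (adjusted exact permutation p = 0.252), and -0.24 against 1451941_a_at, which passed with all 10 arrays (adjusted exact permutation p = 0.0488) but in 1 of the 10 single omissions, that of TPlp+AxL 3 (0.0289, against 0.0529 to 0.0855 in the other 9). The dim and flat 1447622_at lay below every activating probe set in its change, by 0.21 to 1.27. Apart from 1447622_at, Fcgr1 1417876_at rose more than 1435476_a_at (0.34, a call lost in most single omissions) and less than 1435477_s_at (-0.55). For Fcgr3 and Fcgr1 1436625_at, the pairs that passed apart from 1447622_at were all ones in which the activating probe set rose less. For Fcgr4 the shift was positive against all 5, but 2 of these pairs did not pass. Against 1435477_s_at it was near 0 (0.05), and it was -0.13 without TPlp+AxL 3. The Fcgr4 pairs that passed included that against the dim and flat 1447622_at.

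**Figure D3:**
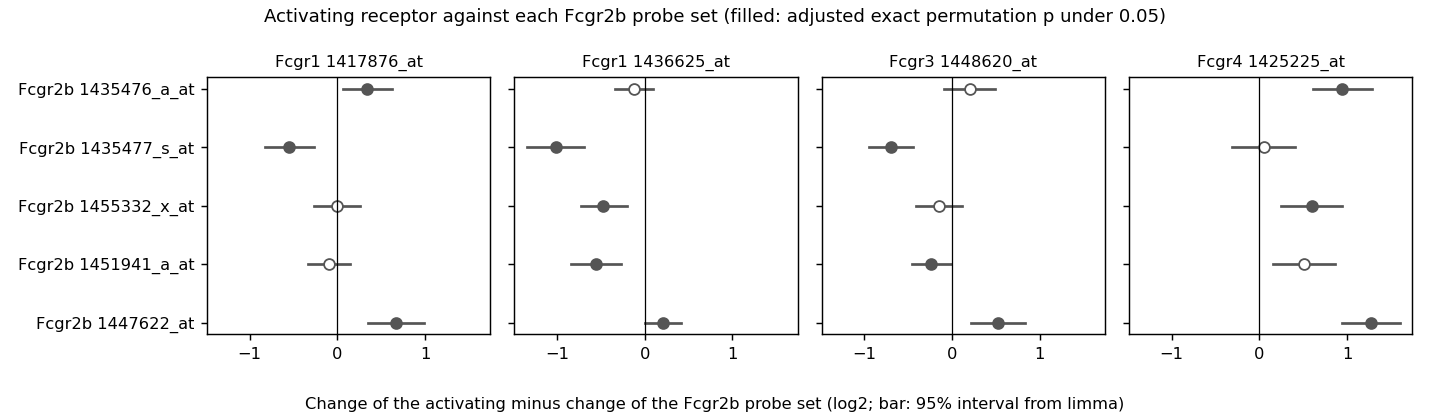
Each panel is 1 activating receptor probe set and each row 1 Fcgr2b probe set, with the change of the former minus the change of the latter on the horizontal axis (log2), its 95% interval from limma, and filled points where the adjusted exact permutation p is under 0.05. Points for Fcgr4 lie at or right of 0, from 0.05 to 1.27, whereas those for Fcgr1 and Fcgr3 lie on both sides.

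The adaptors Fcer1g and Tyrobp did not pass the test. Fcer1g, the ITAM chain that the activating receptors need at the cell surface, read 11.20, 11.59, 11.74, 11.31 and 11.40 in AxL 1 to 5 and 11.66, 11.50, 11.87, 11.78 and 11.72 in TPlp+AxL 1 to 5. AxL 2 and AxL 3 lay within the TPlp+AxL range, and the change was 0.26 (95% interval 0.04 to 0.48, limma adjusted p = 0.282). Tyrobp read 11.73, 11.94, 12.13, 11.72 and 11.88 in AxL 1 to 5 and 12.03, 11.72, 12.05, 11.96 and 12.00 in TPlp+AxL 1 to 5. Its groups overlapped throughout, and the change was 0.07 (95% interval -0.12 to 0.26, limma adjusted p = 0.731). Both probe sets were bright, at the 95.9th and 97.1th percentile of all probe sets. Neither passed under any of the 19 alternatives tried, where the change ran from 0.20 to 0.38 for Fcer1g and from 0.03 to 0.20 for Tyrobp. Their difference from the receptors was not tested.

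Syk, the kinase that docks on phosphorylated ITAMs, was measured by 4 probe sets. The brightest, 1418261_at, read 7.97, 7.97, 8.0, 8.12 and 8.07 in AxL 1 to 5 and 8.22, 8.16, 8.27, 8.31 and 8.17 in TPlp+AxL 1 to 5. The groups were apart by 0.04, and the change of 0.20 (95% interval 0.10 to 0.30) did not pass (limma adjusted p = 0.0681), except without AxL 4 (0.0418) or with array weights (0.0207). The other 3 ran from 6.47 to 7.29 over all arrays and overlapped between the groups. Their changes were 0.09 for 1457239_at, -0.01 for 1418262_at and -0.01 for 1425797_a_at (limma adjusted p = 0.336, 0.929 and 0.961).

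**Figure D4:**
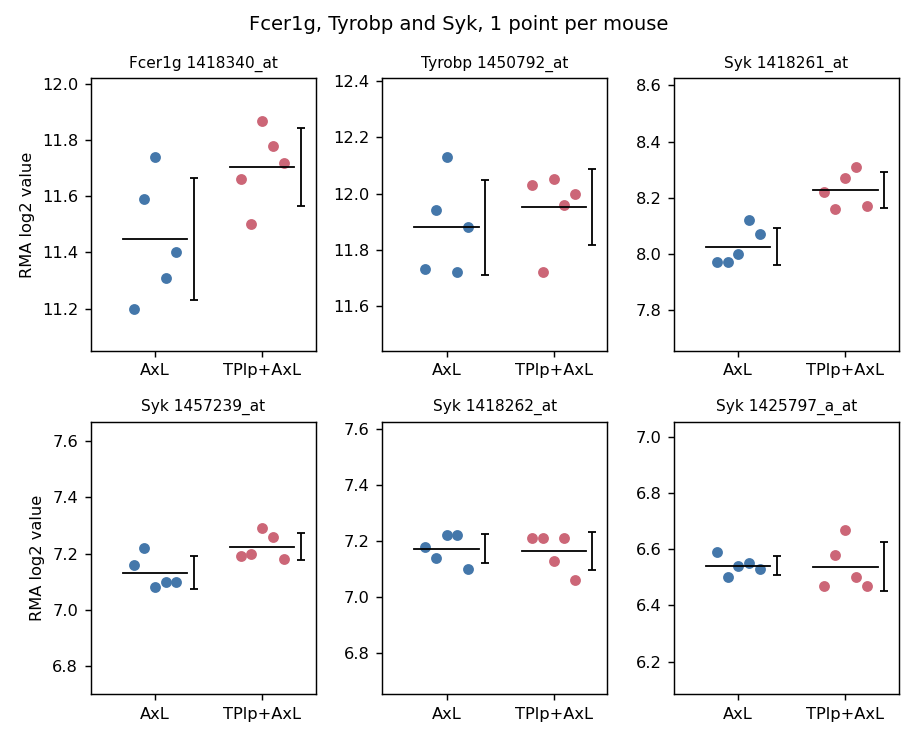
Fcer1g, Tyrobp and the 4 Syk probe sets are drawn with 1 point for each mouse, a line at the group mean, a bar of 1 SD and RMA log2 values on the vertical axis. The groups are apart only in Syk 1418261_at, by 0.04.

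The wider pathway was described by 6 lists. The list of receptors apart from Fc receptors that signal through Fcer1g or Syk also held relatives such as Clec4a2. In it 4 of 13 measured genes rose and 0 fell. Over the 18193 genes by their brightest probe set, 0.978% were higher and 0.28% lower. The list median was 0.11 against -0.028 for all genes. All 4 are C-type lectins of myeloid cells: Clec7a (dectin-1, which carries its own single-tyrosine form of an ITAM) rose by 1.83 (SE 0.17, limma adjusted p = 0.00114), Clec4e (mincle) by 1.11 (SE 0.10), Clec4d by 1.10 (SE 0.10) and Clec4n (dectin-2) by 0.96 (SE 0.11). Clec4e and Clec4n rose in their second probe sets too (0.40 and 1.25). All 4 passed in every single omission.

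The list for Tyrobp and its relative Hcst held their partner receptors, Hcst itself and relatives such as Pilra and Cd200r1. Of its 19 measured genes 2 rose and 0 fell, with a median of 0.13. They were Clec5a (0.35, SE 0.07, limma adjusted p = 0.0396), a myeloid lectin, and the activating paired receptor Pilrb1 (0.29, SE 0.04, limma adjusted p = 0.00961). Pilrb1 kept its call in every single omission and lost it with the replicate block (0.0553), and Clec5a lost it in 8, with an adjusted p from 0.0611 without AxL 2 to 0.116 without AxL 5 or TPlp+AxL 4, also without AxL 1 (0.0938), AxL 3 (0.104), TPlp+AxL 1 (0.0712), TPlp+AxL 3 (0.0775) and TPlp+AxL 5 (0.1), and also with the arrays set to a common median (0.0547), after quantile (0.0835) or cyclic loess (0.093) normalization and with the replicate block (0.101). Trem2, the lipid receptor of microglia, went the other way in value, from a mean of 9.30 (SD 0.20, n = 5) to one of 8.97 (SD 0.10, n = 5), a change of -0.33 that did not pass (limma adjusted p = 0.133) except without AxL 4 (-0.41, adjusted p = 0.0141) or with array weights (-0.36, adjusted p = 0.0356). A second Trem2 probe set had -0.01. Hcst had 0.17 (limma adjusted p = 0.188).

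Of 25 kinases and scaffolds of ITAM signalling, 1 rose and 0 fell, with a median of 0.06. Lcp2, the adaptor SLP-76, changed by 0.38 (SE 0.07, limma adjusted p = 0.0357), and its second probe set by 0.14. Among the single omissions the Lcp2 call held without AxL 4 or TPlp+AxL 2, and it was lost on leaving out AxL 1 (0.0855), 2 (0.0629), 3 (0.0665) or 5 (0.114), or TPlp+AxL 1 (0.0789), 3 (0.106), 4 (0.113) or 5 (0.0944). Of 19 inhibitory phosphatases and regulators, 1 rose and 0 fell, with a median of 0.02. This was Cd300lf, an inhibitory lipid-binding receptor of myeloid cells (0.69, SE 0.09, limma adjusted p = 0.00331), which passed in every single omission. Inpp5d, the phosphatase that Fcgr2b recruits, had 0.02 (limma adjusted p = 0.899) and Ptpn6, the phosphatase SHP-1, 0.15 (limma adjusted p = 0.122), with second probe sets at -0.04 and 0.16.

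Of 13 other Fc receptors and relatives measured, 1 rose and 0 fell, with a median of 0.02. The gene was Trim21, a cytosolic antibody receptor and ubiquitin ligase (0.36, SE 0.07, limma adjusted p = 0.0392). It kept its call without TPlp+AxL 1 or TPlp+AxL 2 and lost it without AxL 1 (0.0898), AxL 2 (0.0598), AxL 3 (0.0749), AxL 4 (0.0736), AxL 5 (0.113), TPlp+AxL 3 (0.0687), TPlp+AxL 4 (0.12) or TPlp+AxL 5 (0.1), with the arrays set to a common median (0.0504) and with the replicate block (0.0604). Fcer1a, the IgE-binding chain of mast cells, which also uses Fcer1g, was at the 6.86th percentile of level and had 0.07 (limma adjusted p = 0.549). Of 5 immunoglobulin chain genes 0 passed in limma (0.479 for Igha and 0.483 for Jchain, the smallest 2), with a median of 0.06 and changes from -0.04 to 0.11.

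**Figure D5:**
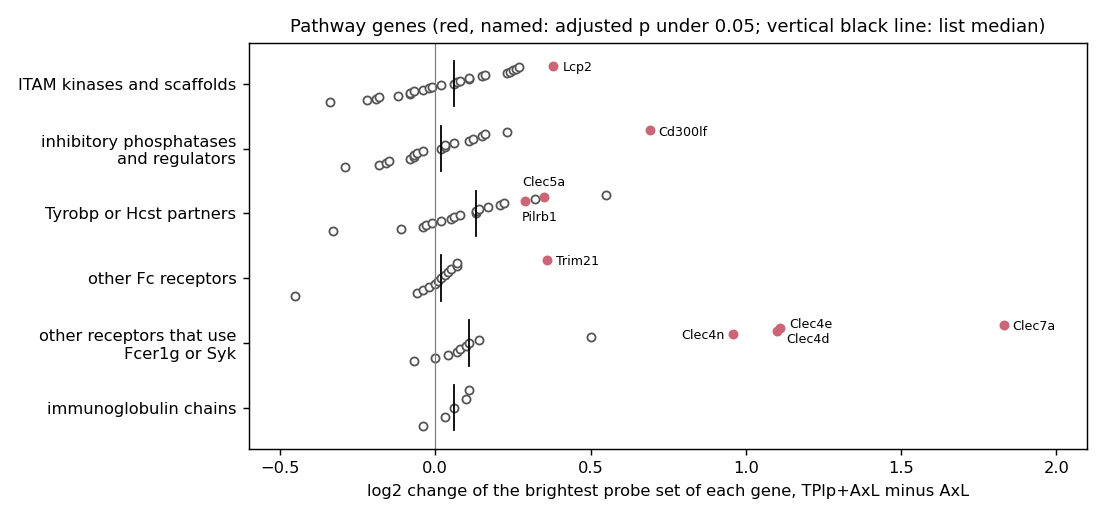
Each point is 1 gene of the 6 pathway lists by its brightest probe set, with the log2 change (TPlp+AxL minus AxL) on the horizontal axis, a black line at the list median, and red, named points at an adjusted p under 0.05. The 4 C-type lectins lie between 0.96 and 1.83, and the other red points between 0.29 and 0.69.

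Genes that are not members also lie between Fcgr2b and Fcer1g on chromosome 1. In the order of assembly GRCm38.p6, 7 other protein-coding genes share this stretch, and 6 had a probe set of their own. Their changes ran from -0.20 to 0.03, for Cfap126, Sdhc, Pcp4l1, Nr1i3, Tomm40l and Apoa2, and 0 of 6 passed in limma (adjusted p from 0.292 to 0.999). Over the 18193 genes by their brightest probe set, 0.978% passed as higher and 0.28% as lower, so 0 of 6 does not set these genes apart from others.

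Markers of cell types that a whole hippocampus could hold were read beside these genes, whether or not the cells carry the receptors. In the microglia list, 0 of 11 genes passed in limma and the median was -0.10, with list means of 9.50 to 9.73 in AxL and 9.38 to 9.65 in TPlp+AxL (Tmem119 -0.27, Csf1r -0.04, Cx3cr1 -0.09). In the list of monocytes and infiltrating macrophages, 4 of 9 rose, with list means of 8.61 to 8.83 in AxL and 9.23 to 9.49 in TPlp+AxL, led by Chil3 (2.18) and Plac8 (1.92), while the defining receptor Ccr2 had 0.13 (limma adjusted p = 0.296). In neutrophils 3 of 10 rose, S100a8 (1.14), S100a9 (1.18) and Mmp8 (0.24), with list means of 7.83 to 8.03 and 8.17 to 8.26, and the granule genes Mpo (0.03), Elane (0.06) and Camp (-0.05) did not pass.

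In perivascular macrophages 0 of 8 genes passed in limma (median 0.00, list means of 8.01 to 8.29 and 8.07 to 8.20). The same held for 0 of 10 in mast cells and basophils (0.05, 7.70 to 7.74 and 7.71 to 7.78), 0 of 8 in B cells and plasma cells (0.06, 7.36 to 7.49 and 7.46 to 7.51) and 0 of 7 in dendritic cells (0.07, 7.94 to 8.06 and 8.02 to 8.10). In NK cells 1 of 7 rose, Klrd1 (0.52), with list means of 7.34 to 7.43 and 7.44 to 7.61, and in T cells 3 of 9 rose, Cd3g (0.87), Cd3d (0.63) and Il7r (0.40), with list means of 7.61 to 7.73 and 7.89 to 8.12. The hippocampal neuron list had a median of -0.15 and the choroid plexus list -0.38, with 0 of 10 and 0 of 8 past the threshold in limma. In the lists of monocytes, neutrophils, NK cells and T cells every TPlp+AxL list mean lay above every AxL one. Most genes of each list did not pass. The same separation was seen for Fcgr4, Fcgr1, Fcgr3, 4 Fcgr2b probe sets and Syk 1418261_at. The part of these cell types in the receptors' changes was not tested.

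Likeness to other genes was described by Pearson's r over the 10 arrays, which fall into 2 groups, so that any gene that differs between the groups scores high. Among the 7 members, Fcgr1 and Fcgr3 were most like each other (0.97), and the r of their deviations from the group means was 0.92. Outside the members, the gene most like both was BC035044 (0.968 with each). For Fcgr1 it was followed by Ncf4, a subunit of the phagocyte oxidase (0.956), and Anxa1 (0.956). For Fcgr3 it was followed by Lacc1 (0.964) and Vwa5a (0.955). Fcgr4 was most like Samhd1 (0.991), a nucleotide hydrolase that limits viruses, Ifi209 (0.987) and the chemokine Ccl7 (0.987). By deviations from the group means its nearest genes were the MHC class II chain H2-Eb1 (0.97), the invariant chain Cd74 (0.969) and Lgals3bp (0.966).

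Fcgr2b, by its brightest probe set, was nearest to Arid5a (0.943), BC023105 (0.931) and Slc30a2 (0.915), and its deviations had an r of 0.23 with those of Fcgr1, -0.03 with Fcgr3 and -0.06 with Fcgr4. The adaptors Fcer1g and Tyrobp had 0.85 with each other over the arrays and 0.91 by deviations. The deviations of Fcgr4 had an r of 0.64 with those of Fcer1g and 0.58 with those of Tyrobp, beside 0.40 with Fcgr1 and 0.29 with Fcgr3. Fcer1g was nearest to Cyba (0.972), a subunit of the phagocyte oxidase, Nupr1 (0.947) and Fancf (0.947), and Tyrobp to Gas2l3 (0.948), Mmachc (0.944) and Gngt2 (0.938). Syk was nearest to Ptprc (0.954), the leukocyte antigen CD45, Cnn2 (0.951) and Tgm2 (0.951).

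By deviations alone, Fcgr1 was nearest to Ehhadh (0.955), Sh3bp5l (0.951) and Scube2 (0.95), and Fcgr3 to Pde4d (0.992), Snx13 (0.978) and Itpk1 (0.965). Fcgr2b was nearest to Catsper2 (0.918), Wee2 (0.897) and 2700099C18Rik (0.887). The nearest genes of Fcer1g were Gngt2 (0.975), Siva1 (0.97) and Gas2l3 (0.97), those of Tyrobp were Anapc15 (0.979), Pdp1 (0.961) and 1700095J03Rik (0.948), and those of Syk were Zfp598 (0.93), Gch1 (0.923) and Usf2 (0.889). With 5 arrays in each group and 18193 genes, values of this size are a description of these arrays.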

How the data were processed

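Per the submitters' processing notes, RMA gave the deposited log2 values (45101 probe sets). Its software is not given in the sources used here. Values ran from 5.45 to 14.86, array medians from 7.88 to 7.92, and 0 pairs of arrays were identical. The 64 control probe sets were left out, with no filter or further normalization. Platform symbols were updated through Entrez identifiers (34741 of 34945 probe sets with 1 symbol matched; 932 listed several and 9160 none). limma 3.58.1 in R 4.3.3 (lmFit, eBayes without a trend) compared TPlp+AxL with AxL over 45037 probe sets, with Benjamini-Hochberg adjustment and a threshold of 0.05; it was tested on simulated data. For lists and likeness, each gene was read by its brightest probe set. Named genes were every member probe set, up to 4 genes past the threshold in each pathway list or else the 2 with the smallest p, a few fixed partners, and the 3 genes most like each member. Members, lists and tests were chosen with earlier results of these data known. Replicates are mice by the labels. The limma p-values weigh a difference between groups against the spread between these mice, moderated over all probe sets. The pair p-values come from relabelling the arrays. The number of arrays limits the precision. The labels state no pairing of same-numbered mice, so the numbers were not taken as pairs. Same-numbered mice had deviations correlated from -0.224 to 0.363, which cannot settle whether they were paired. The matches to 1 further promoter motif are not reported here.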

Additional observations from a re-analysis of the deposited data

Results flagged for a closer look

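In groups of 5 arrays, 1 array was called far from the others where its gap to the nearest exceeded 0.71 of the group's range. This held in 8 of 102 groups, where chance marks about 1 in 20. Tyrobp in TPlp+AxL 2 (11.72, nearest 11.96) and Lcp2 in the same array (8.12, nearest 8.42) were low. Clec7a was high in AxL 4 (8.45, nearest 8.27), and the brightest Igha probe set was low in TPlp+AxL 1 (8.04, nearest 8.17). Among differences of receptor pairs, TPlp+AxL 3 was high for Fcgr1 1417876_at minus Fcgr2b 1451941_a_at (0.75, nearest 0.39), Fcgr3 minus Fcgr2b 1451941_a_at (1.66, nearest 1.41) and Fcgr4 minus Fcgr2b 1455332_x_at (0.38, nearest -0.34). AxL 2 was low for Fcgr3 minus Fcgr2b 1455332_x_at (0.92, nearest 1.32). These pairs share probe sets and are not independent.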

How the results depend on the processing

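The count of all probe sets past the threshold (376) was 753 with array weights, 241 with a replicate block, 757 at an adjusted p under 0.10, 1 without AxL 3, AxL 5 and TPlp+AxL 1 together, and 185 to 460 with 1 array left out. The count of members (7 of 15) was 4 of 7 with 1 probe set per gene, 0 without those 3 arrays, 4 (without TPlp+AxL 3 or TPlp+AxL 5) to 8 with 1 array left out, and 7 to 9 otherwise. It was 7 with the replicate block. Fcgr1 1417876_at minus the brightest Fcgr2b probe set (0.34, adjusted p = 0.0488 by the exact permutation test) no longer passed after quantile (0.30, adjusted p = 0.0952) or cyclic loess (0.31, 0.0741) normalization or without the 3 arrays (0.32, 0.204), and ran from 0.26 to 0.40 with 1 array left out. The shift of Fcgr4 against the same probe set was 0.98 without the 3 arrays (adjusted p = 0.114). With group labels exchanged only within replicate numbers, the replicate block of the pair test, the smallest p is 0.0625, so no pair can pass (shifts stay 0.34 and 0.94, adjusted p = 0.179 and 0.114).

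Changes near 0 turned sign: Fcgr2b 1447622_at was -0.02 after median subtraction, -0.01 with array weights and -0.02 to 0.03 with 1 array left out. Syk 1425797_a_at was 0.01 without the 3 arrays and -0.04 to 0.01 with 1 left out, Syk 1418262_at -0.03 to 0.02, and Inpp5d -0.01 after median subtraction and -0.02 to 0.06 with 1 left out. Fcgr4 minus Fcgr2b 1435477_s_at was -0.13 without TPlp+AxL 3, and up to 0.15 with another array left out. The causes were not tested.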
